A study of Homo sapiens with 6 samples.

Results

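Small nucleolar RNA (snoRNA) host genes are transcribed as long non-coding RNAs whose introns carry snoRNAs, and 13 isoforms of 6 such genes were described here out of the 1437 lncRNA transcripts in the deposited table. The members were the annotated rows named GAS5, ZFAS1 or SNHG plus a number, with SNHG14 and SNHG15 left out. They were 3 isoforms each of SNHG17, SNHG4 and GAS5, 2 of ZFAS1, and 1 each of SNHG1 and SNHG25. GENCODE release 29 lists 24 genes with such names, and isoforms of the other genes, and the remaining isoforms of these genes, were not analysed here. The study compared A549, an established human lung adenocarcinoma line grown in DMEM, with HBE, a normal lung epithelial line grown in RPMI-1640 whose name the labels also spell HEB. Both media held fetal bovine serum, streptomycin and penicillin, and no further treatment is given. There were 3 RNA-seq samples per line, built from total RNA by a kit for mRNA libraries. Each cell type is represented by 1 line, and line and medium cannot be told apart. Nothing in the labels names separate cultures, and every p-value below therefore rests on a sample-to-sample spread that could be technical.

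A snoRNA is cut out of the excised intron of its host and then guides chemical modification of ribosomal and spliceosomal RNA. C/D box snoRNAs guide ribose methylation and H/ACA box snoRNAs guide pseudouridylation. The spliced host RNA is usually short-lived, because translation of its short reading frames leads to nonsense-mediated decay, and several hosts begin with the pyrimidine tract of genes for the translation machinery. GAS5 was named for its accumulation in growth-arrested cells, and ZFAS1 is transcribed antisense to the 5′ end of the coding gene ZNFX1.

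The deposited table was limited to transcripts that the authors had selected for a difference between the lines, with a largest p-value of 0.00997 in the authors' deposited table. Its columns held 0.459% to 1.06% of the A549 libraries and 0.991% to 2.48% of the HBE libraries. The recovered library sizes were 55443876 to 57664347 in A549 and 49376413 to 56218149 in HBE. Markers were looked up as a description only, since a table of selected differences cannot check the identity of the lines. In it was 1 of 4 airway basal markers, MIR205HG, which was at 0 FPKM in every A549 sample and summed to 23.6 to 64.8 FPKM in HBE. Of 5 alveolar and club cell markers SFTA1P alone was in the table, at 0 FPKM in A549 and 3.72 to 9.92 FPKM in HBE. CDKN2B-AS1, from the 9p21 region that A549 is known to have lost, was at 0 FPKM in A549 and 0.116 to 0.426 FPKM in HBE. LUCAT1, a lncRNA named for lung cancer, reached 0.143 to 0.768 FPKM in A549 and 0 to 0.0297 FPKM in HBE. MIR100HG, the mesenchymal marker present, reached 0.0869 to 0.394 FPKM in A549 and 0 to 0.00612 FPKM in HBE, and no blood or endothelial marker was in the table. The coding markers of these lists were not analysed here.

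Within the 13 isoforms lie 28 snoRNA genes of RefSeq (GRCh38.p14), and in 5 isoforms an exon takes in a whole snoRNA. GAS5-207 and GAS5-217 both hold SNORD80 at their 5′ end, SNHG1-203 holds SNORD29, ZFAS1-210 holds SNORD12 and SNHG25-202 holds SNORA50C. The 4 snoRNAs are shown because they mark the isoforms that keep snoRNA sequence, among them both isoforms that were lower in A549. They are read from the GENCODE transcripts, 5′ to 3′, and capitals mark the C box TGATGA and the D box CTGA, or the ACA box of the H/ACA snoRNA.
SNORD80 (chr1:173864833-173864903, minus strand): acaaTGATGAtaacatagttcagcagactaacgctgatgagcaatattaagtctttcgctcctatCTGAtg
SNORD29 (chr11:62853904-62853968, minus strand): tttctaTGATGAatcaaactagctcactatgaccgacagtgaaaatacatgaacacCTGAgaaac
SNORD12 (chr20:49280683-49280772, plus strand): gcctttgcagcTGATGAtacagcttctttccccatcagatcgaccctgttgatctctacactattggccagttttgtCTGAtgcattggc
SNORA50C (chr17:64146339-64146471, plus strand): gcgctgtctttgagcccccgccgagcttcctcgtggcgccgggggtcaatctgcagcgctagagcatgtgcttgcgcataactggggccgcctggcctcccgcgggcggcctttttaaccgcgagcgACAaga
The snoRNA makes up 47.8% of the length of SNHG25-202, 12.3% of ZFAS1-210, 12.2% of SNHG1-203, 16.7% of GAS5-217 and 11.04% of GAS5-207. Of the other 675 annotated transcripts in the table, 9 or 1.33% held a whole snoRNA in an exon, and they belong to SNHG14, SNHG15, LRRC75A-AS1 and the clone-named AC124312.3 and AC124312.4. Of all 83 GENCODE isoforms of the 6 member genes, 31 or 37.3% did.

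**Figure D1:**
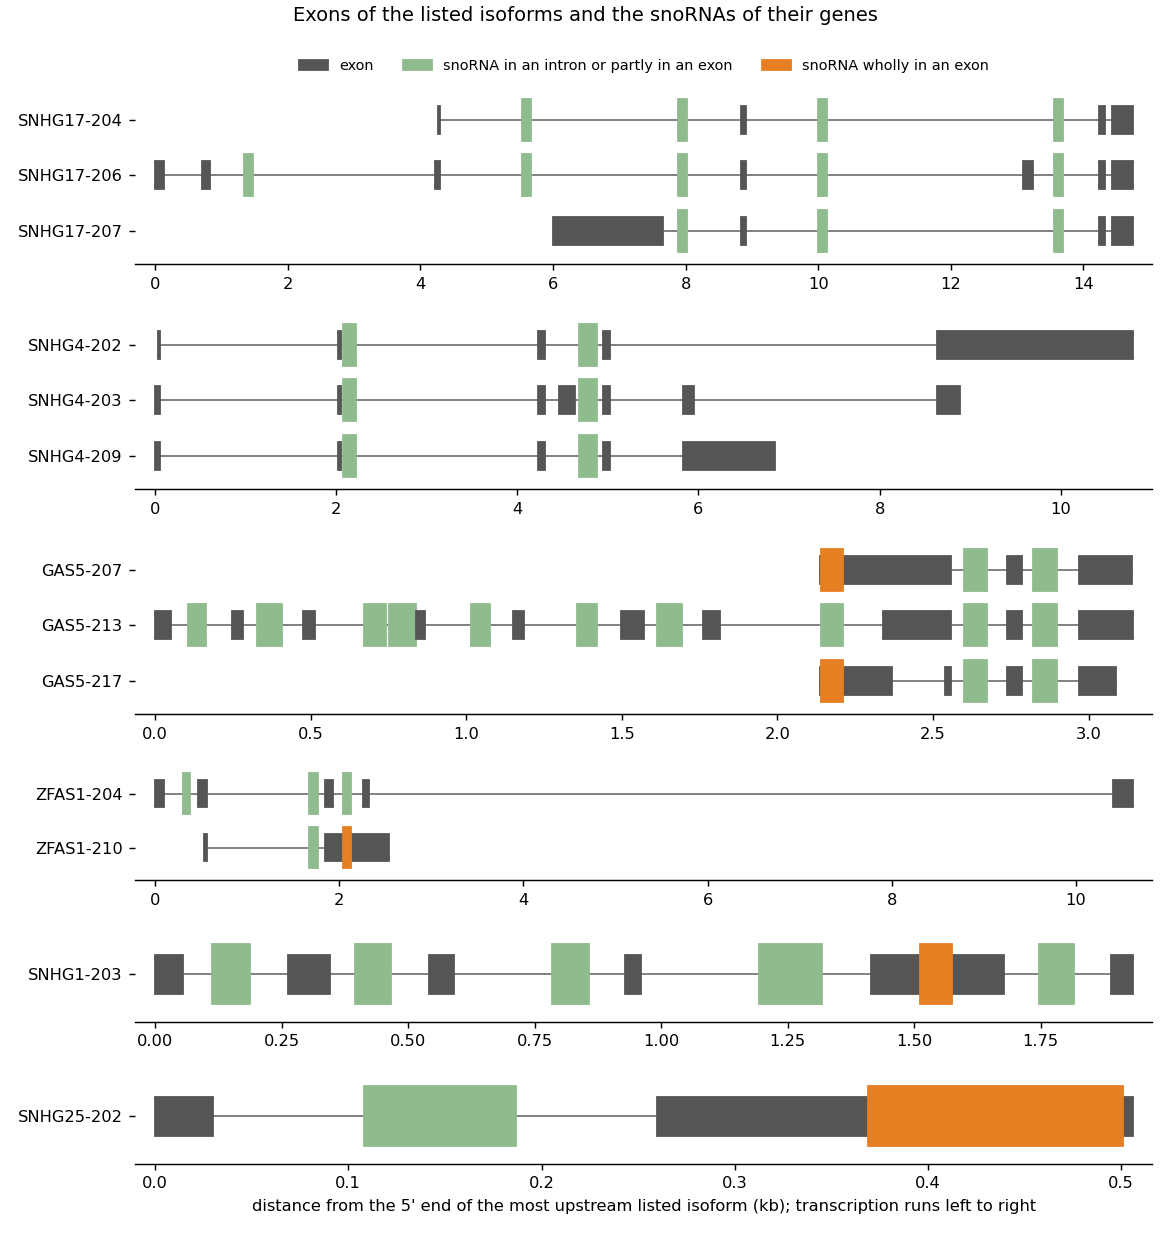
Exons (grey boxes) and snoRNA genes of each listed isoform, by distance in kb from the 5′ end of the gene's most upstream listed isoform, with 1 panel per gene and its own scale. Orange marks a snoRNA wholly inside an exon, seen in 5 of the 13 isoforms, and green one in an intron or partly in an exon.

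Of the 13 isoforms, 11 were higher and 2 lower in A549, against a background of 47.6% of the 1437 transcripts higher and 52.3% lower (edgeR quasi-likelihood test, adjusted p below 0.05 over the whole table). SNHG17, SNHG4, GAS5 and SNHG1 were higher in every listed isoform, ZFAS1 had an isoform in each direction, and SNHG25 was lower. The median log2 fold change of A549 over HBE was 2.37 for the 13 isoforms and -2.004 for all transcripts. The median size of the log2 fold change was 3.25 for the isoforms and 6.29 for all transcripts. In either direction 99.9% of the table passed, and the authors had selected its transcripts on these samples, so a call here is not independent evidence of a difference. FPKM ranges of the lines did not overlap for 11 isoforms, against 99.2% of the table. The sizes of the fold changes depended on the scaling, and the DESeq2 and TMM scalings were estimated from this selected table alone. With DESeq2 size factors in edgeR every member's log2 fold change lay 1.33 to 1.56 above the value given here, and the median of all transcripts lay 0.86 above. With the DESeq2 Wald test the members lay 1.38 to 1.61 above and all transcripts 1.40, and with TMM 0.44 to 0.58 and 0.28. Under DESeq2 size factors the log2 fold changes were 7.76, 5.37 and 5.82 for SNHG17-204, SNHG17-206 and SNHG17-207, and 5.86, 3.69 and 5.28 for SNHG4-202, SNHG4-203 and SNHG4-209. They were 4.63, 2.78 and 3.26 for GAS5-207, GAS5-213 and GAS5-217, 3.81 and -1.84 for ZFAS1-204 and ZFAS1-210, 2.66 for SNHG1-203 and -4.36 for SNHG25-202. In bulk RNA a lower level in every cell and fewer cells with the RNA cannot be told apart.

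**Figure D2:**
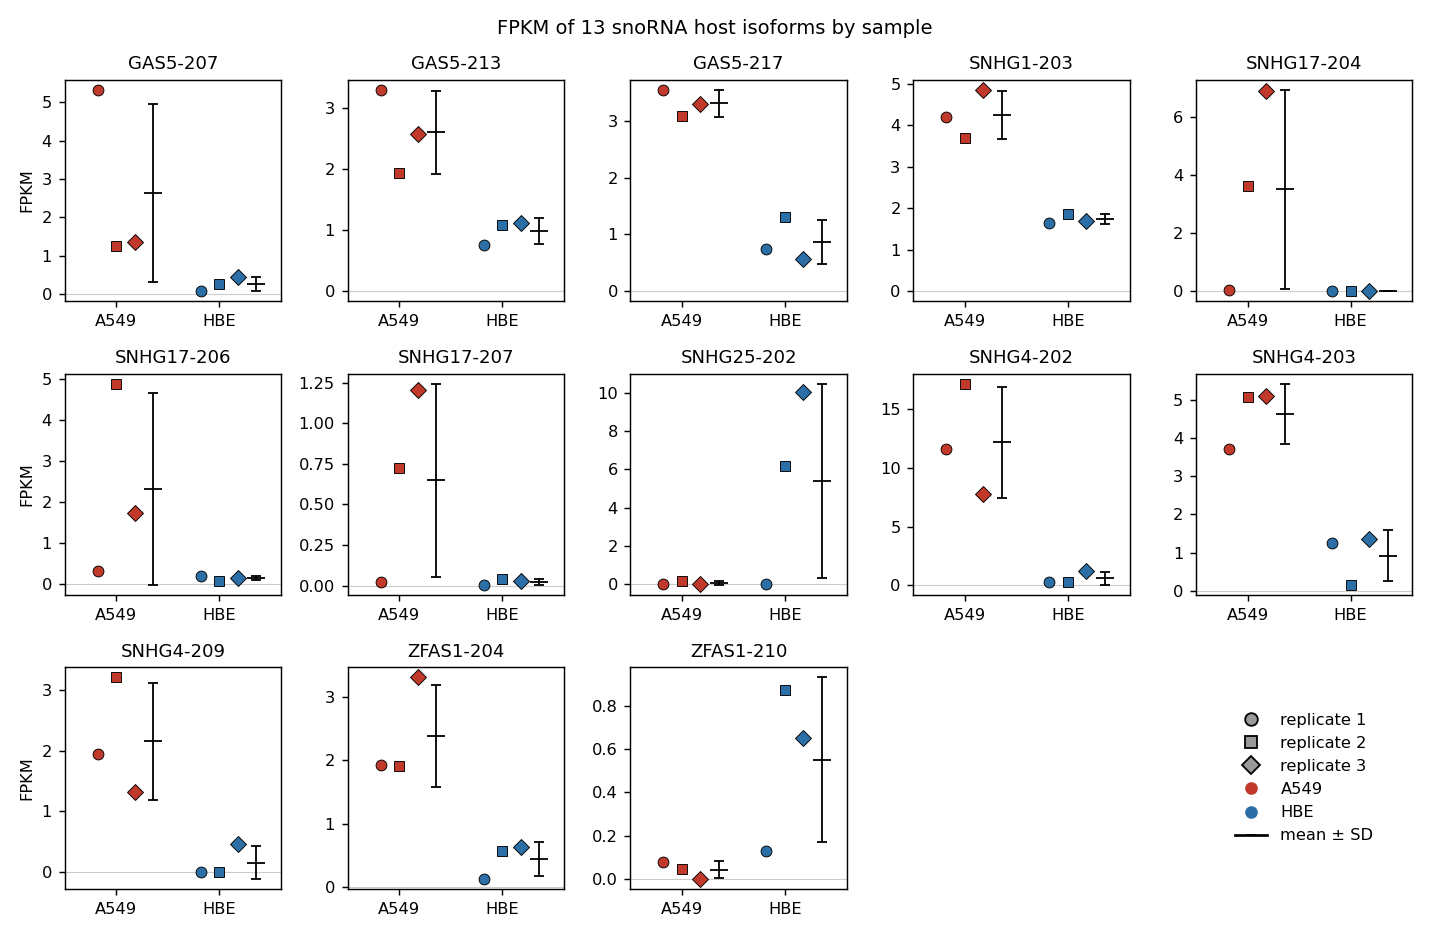
FPKM (vertical axis, linear, own scale per panel) of the 13 isoforms in the 3 A549 and 3 HBE samples, with marker shape for the replicate and the mean ± SD beside each group. All 3 SNHG17 panels have A549 replicate 1 near the HBE points, and the SNHG25-202 panel has HBE replicate 1 at 0.

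SNHG17, host of the H/ACA snoRNAs of the SNORA71 family (chromosome 20, minus strand), was higher in A549 in all 3 listed isoforms, with most of the signal in A549 replicates 2 and 3. SNHG17-204 (ENST00000423536, 38420588 to 38431066, 4 exons) had 0.0362, 3.63 and 6.89 FPKM in A549 replicates 1, 2 and 3, against 0.000257, 0.00931 and 0.00434 FPKM in HBE replicates 1, 2 and 3. A549 replicate 1 lay close to HBE, and the other A549 samples stood far above it. In estimated counts these levels were 2, 105 and 206 in A549, against 1 in each HBE sample. SNHG17-204 has no base and no junction of its own in the annotation. Its level and fold change therefore rest on an estimated division of shared reads.

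The deposited counts of this isoform were rounded up. FPKM times length times library size gives 1.05 counts in A549 replicate 1 and 0.00747, 0.250 and 0.111 in the HBE samples. The HBE count of 3 over the line is therefore set by rounding, and no ratio of counts is given. The fitted log2 fold change was 6.43 (SE 1.16, adjusted p = 3.23e-05 by edgeR), 8.62 with unrounded counts, and 5.50 without A549 replicate 3.

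SNHG17-206 (ENST00000436764, 38420588 to 38435333, 7 exons) begins within 50 bases of the gene's RefSeq start and had 0.313, 4.88 and 1.72 FPKM in A549, against 0.192, 0.0732 and 0.149 FPKM in HBE. The lines did not overlap, but A549 replicate 1 was again the lowest of its line. Its log2 fold change was 3.94 (SE 0.84, adjusted p = 0.000101 by edgeR), or 2.77 without A549 replicate 2. Alone among the listed SNHG17 isoforms, this isoform has junctions found in no other transcript of the annotation. They are shown here because they set it apart, with the downstream exon in capitals.
SNHG17-206 junction 4: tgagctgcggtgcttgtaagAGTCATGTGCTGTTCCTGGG
SNHG17-206 junction 5: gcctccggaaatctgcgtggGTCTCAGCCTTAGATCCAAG
SNHG17-207 (ENST00000449469, 38420592 to 38429330, 4 exons) starts inside the gene, and 73.2% of its 2138 bases are in no other transcript on that strand. It had 0.0209, 0.725 and 1.20 FPKM in A549, against 0.00422, 0.0421 and 0.0288 FPKM in HBE, so A549 replicate 1 fell inside the HBE range. Its log2 fold change was 4.39 (SE 1.03, adjusted p = 0.000265 by edgeR), or 3.59 without A549 replicate 3.

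Summed over the 3 listed isoforms, SNHG17 reached 0.370, 9.24 and 9.82 FPKM in A549, against 0.196, 0.125 and 0.183 FPKM in HBE. The lines did not overlap, and the A549 SD of 5.30 FPKM was close to the A549 mean of 6.48 FPKM. The log2 fold change of the sum was 4.57 (SE 0.77, adjusted p = 1.63e-05 by edgeR over 1272 gene sums), and 5.12 without A549 replicate 1. Among gene sums 99.4% passed, 46.4% higher and 53% lower in A549, and 4 of the 6 member genes were higher, 1 was lower and 1 did not pass.

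SNHG4, host of the H/ACA snoRNA SNORA74A (chromosome 5, plus strand), was higher in A549 in all 3 listed isoforms. SNHG4-202 (ENST00000505522, 139274131 to 139284899, 5 exons) had 11.6, 17.1 and 7.76 FPKM in A549, against 0.280, 0.255 and 1.26 FPKM in HBE. HBE replicate 3 was the highest of its line and still lay below every A549 sample. The log2 fold change was 4.34 (SE 0.66, adjusted p = 3.76e-06 by edgeR), or 5.48 without HBE replicate 3.

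SNHG4-209 (ENST00000648842, 139274102 to 139280947, 5 exons) had 1.95, 3.21 and 1.32 FPKM in A549, against 0.00711, 0 and 0.469 FPKM in HBE. The HBE level came nearly all from replicate 3, which held 30 of the 31 HBE counts. The log2 fold change of 3.72 (SE 0.93, adjusted p = 0.000566 by edgeR) was 7.90 without that sample. SNHG4-203 (ENST00000506188, 139274103 to 139282989, 7 exons) had 3.71, 5.06 and 5.10 FPKM in A549, against 1.25, 0.159 and 1.37 FPKM in HBE. In this isoform HBE replicate 2 was the low sample, and the fitted log2 fold change was 2.31 (SE 0.66, adjusted p = 0.00176 by edgeR).

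The coding gene MATR3, which encodes a nuclear matrix protein, has exons on the same strand over 68.7% of SNHG4-203, 29.7% of SNHG4-209 and 12.3% of SNHG4-202. An exon of SIL1, an endoplasmic reticulum co-chaperone gene, lies opposite 9.34% of SNHG4-209. MATR3 itself was not analysed here, and its part in the SNHG4 values was not tested. The isoform that shares the least with MATR3, SNHG4-202, has 66.5% of its 2383 bases in no other transcript on that strand, and 70.3% of SNHG4-209 is likewise its own. SNHG4-203 has no base and no junction of its own. The junction that marks SNHG4-202, with the downstream exon in capitals, joins its long last exon.
SNHG4-202 junction 4: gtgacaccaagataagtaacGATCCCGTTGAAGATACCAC
Summed over the 3 isoforms, SNHG4 had 17.3, 25.4 and 14.2 FPKM in A549, against 1.54, 0.414 and 3.09 FPKM in HBE. The sum differed by a log2 fold change of 3.89 (SE 0.61, adjusted p = 7.33e-06 by edgeR), or 4.85 without HBE replicate 3.

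Among member genes with a RefSeq start sequence, 3 have a listed isoform that begins within 50 bases of that start. Their windows, from 20 bases before the start to 30 bases into the transcript (GRCh38.p14), show the longest run of C and T in capitals, since such tracts at the first base are known from hosts of snoRNAs.
SNHG4 (chr5:139274081-139274130, plus strand): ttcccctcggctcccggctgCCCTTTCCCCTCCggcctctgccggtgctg
SNHG17 (chr20:38435299-38435348, minus strand): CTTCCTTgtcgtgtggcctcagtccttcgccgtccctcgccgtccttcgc
ZFAS1 (chr20:49278622-49278671, plus strand): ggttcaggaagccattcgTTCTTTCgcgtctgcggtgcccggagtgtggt
The run of SNHG4 spans 13 bases from the RefSeq start, and 3.52% of the 35116 RefSeq promoters hold a run as long in this window. The runs of ZFAS1 and SNHG17 span 7 bases, as do those of at least that length in 29.1% of promoters. The ZFAS1 run begins 2 bases before the start and that of SNHG17 ends before the start. All 3 listed SNHG4 isoforms, SNHG17-206 and ZFAS1-204 begin within 50 bases of these starts. SNHG4-202 begins at 139274131, past the run and past the printed window, so it does not hold the run. These isoforms were higher in A549, as were 11 of all 13 members, and a link between the runs and the levels was not tested. The listed isoforms of GAS5 and SNHG1 begin inside their genes.

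GAS5 (chromosome 1, minus strand) carries C/D box snoRNAs in its introns, and all 3 of its listed isoforms, out of 29 annotated, were higher in A549. GAS5-207 (ENST00000422207, 173863904 to 173864906, 3 exons), whose first exon takes in part of the intron that holds SNORD80, had 5.33, 1.26 and 1.35 FPKM in A549, against 0.0765, 0.276 and 0.445 FPKM in HBE. A549 replicate 1, the low sample for SNHG17, was the high sample here. With all samples the log2 fold change was 3.21 (SE 0.81, adjusted p = 0.000615 by edgeR), or 2.19 without A549 replicate 1.

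GAS5-217 (ENST00000444470, 173863954 to 173864905, 4 exons) also starts with SNORD80, and a further splice removes part of the exon that follows. It had 3.55, 3.08 and 3.30 FPKM in A549, against 0.736, 1.30 and 0.575 FPKM in HBE, with a narrow spread in A549. Its log2 fold change was 1.88 (SE 0.69, adjusted p = 0.0113 by edgeR). GAS5-213 (ENST00000436285, 173863901 to 173867043, 10 exons) spans 10 snoRNAs, 9 in its introns and SNORA103 with 2 bases in an exon. It had 3.29, 1.93 and 2.57 FPKM in A549, against 0.749, 1.09 and 1.12 FPKM in HBE. Its log2 fold change of 1.39 (SE 0.62, adjusted p = 0.0324 by edgeR) kept its sign but missed the threshold without A549 replicate 1 (1.18, adjusted p = 0.128), without HBE replicate 1 (1.23, adjusted p = 0.0757) and without HBE replicate 2 (1.47, adjusted p = 0.0540).

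None of the 3 GAS5 isoforms has a base or a junction that no other annotated isoform shares, so their separate levels rest on an estimated division of shared reads. Their sum was 12.2, 6.27 and 7.21 FPKM in A549, against 1.56, 2.67 and 2.14 FPKM in HBE, without overlap. The sum differed by a log2 fold change of 1.94 (SE 0.53, adjusted p = 0.00120 by edgeR). The antisense gene GAS5-AS1 lies opposite 38 bases of GAS5-207, 41 bases of GAS5-213 and none of GAS5-217. No source used here says if counting went by strand, so within those bases reads of the pair cannot be told apart.

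ZFAS1 (chromosome 20, plus strand), host of the SNORD12 family of C/D box snoRNAs, had its 2 listed isoforms in opposite directions. ZFAS1-204 (ENST00000428008, 49278642 to 49289260, 5 exons), with 3 snoRNAs in its introns, had 1.92, 1.91 and 3.30 FPKM in A549, against 0.135, 0.567 and 0.635 FPKM in HBE. Every A549 sample was above every HBE sample, with a log2 fold change of 2.37 (SE 0.75, adjusted p = 0.00423 by edgeR). ZFAS1-210 (ENST00000623640, 49279174 to 49281181, 2 exons), whose second exon runs through SNORD12, had 0.0805, 0.0475 and 0.00178 FPKM in A549, against 0.131, 0.871 and 0.649 FPKM in HBE.

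ZFAS1-210 was lower in every A549 sample, from 4, 2 and 1 counts in A549 and 6, 34 and 24 counts in HBE. The log2 fold change was -3.25 (SE 0.99, adjusted p = 0.00299 by edgeR), or -3.85 without A549 replicate 1. It lost its call under edgeR scaled by DESeq2 size factors (-1.84, adjusted p = 0.0688) and under the DESeq2 Wald test (-1.87, adjusted p = 0.0595). Of its 732 bases 62.6% are in no other transcript on that strand, whereas ZFAS1-204 has no base and no junction of its own. The level of ZFAS1-204 thus rests on an estimated division of shared reads.

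Within the listed FPKM sum of ZFAS1, ZFAS1-204 made up 96.0%, 97.6% and 99.9% in A549, against 50.9%, 39.4% and 49.4% in HBE. The mean share was 97.8% ± 2.00 in A549 and 46.6% ± 6.23 in HBE (SD, n = 3 each), a difference of 51.3 percentage points. The exact permutation test gave p = 0.1, two-sided, the smallest that 3 samples against 3 allow. The authors had selected both isoforms for a difference between the lines on these samples. ZFAS1-204 was higher and the other listed isoform lower in every A549 sample, so the shares could not overlap. This p is therefore not independent evidence of a shift between the isoforms. The listed sum covers 2 of the 10 annotated ZFAS1 isoforms, and shares within the whole gene were not tested. The sum itself had 2.00, 1.96 and 3.31 FPKM in A549, against 0.266, 1.44 and 1.28 FPKM in HBE. Its log2 fold change was 1.04 (SE 0.66, adjusted p = 0.127 by edgeR), so the gene sum did not pass although both isoforms did. With the scalings taken from the table the sum passed, with a log2 fold change of 1.63 for TMM in edgeR (adjusted p = 0.0146) and of 2.50 for edgeR scaled by DESeq2 size factors (adjusted p = 0.000870). The DESeq2 Wald test gave 2.51 (adjusted p = 0.000228), and limma gave 1.41 on log2(FPKM + 0.1) (adjusted p = 0.0383) and 0.81 on log2(FPKM + 1) (adjusted p = 0.0280).

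**Figure D3:**
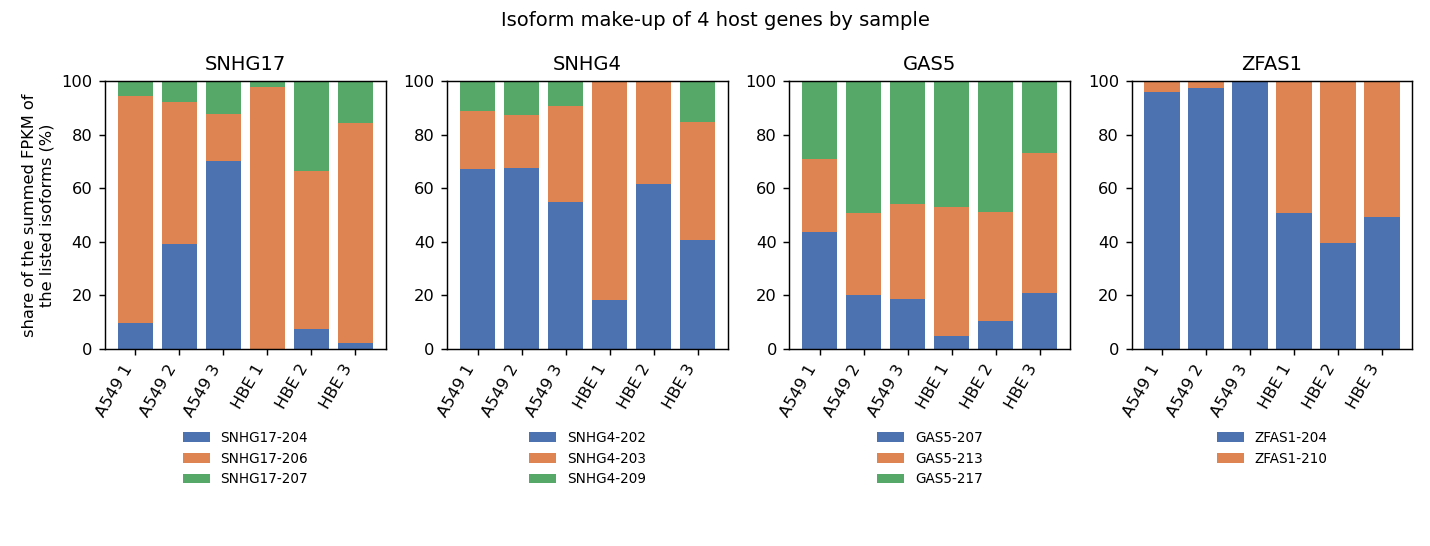
Share of each listed isoform in the summed FPKM of its gene's listed isoforms, in percent, for each A549 and HBE sample. ZFAS1-204 fills 96.0% or more of the A549 bars and 50.9% or less of the HBE bars, and the SNHG17 bars differ among the A549 samples.

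Shares were compared in the same way within the other 3 genes. SNHG17-204 took 9.79%, 39.3% and 70.2% of the SNHG17 sum in A549, against 0.131%, 7.47% and 2.37% in HBE, without overlap (exact permutation test, two-sided, p = 0.1). By estimated counts the SNHG17-204 ranges overlapped, and the difference was 17.3 in place of 36.4 percentage points (exact p = 0.2). The SNHG17-204 share, like its level, rests on an estimated division of shared reads. SNHG17-206 differed by -27.8 percentage points by FPKM and by -9.47 by estimated counts, and SNHG4-209 by 5.85 and 2.91, with overlapping ranges throughout. SNHG4-203 took 21.5%, 19.9% and 35.97% of the SNHG4 sum in A549, against 81.4%, 38.3% and 44.1% in HBE (p = 0.1 by the same exact test). GAS5-213 took 27.1%, 30.8% and 35.6% of the GAS5 sum in A549, against 48.0%, 40.8% and 52.3% in HBE (p = 0.1 by the same exact test). For the other 6 isoforms of these genes the ranges of the lines overlapped, with exact p from 0.2 to 0.9. Each of the 11 shares was tested on its own without adjustment, and no p could fall below 0.1. Shares within a gene depend on each other, and those of ZFAS1-204 and ZFAS1-210 mirror each other as a single comparison.

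SNHG1, host of C/D box snoRNAs such as SNORD29, was represented by SNHG1-203 (ENST00000537024, chromosome 11, 62853547 to 62855479, minus strand, 6 exons) out of 25 annotated isoforms. This isoform has no base and no junction of its own, so its level rests on an estimated division of shared reads. SNHG1-203 had 4.21, 3.71 and 4.86 FPKM in A549, against 1.64, 1.87 and 1.70 FPKM in HBE. Every A549 sample was above every HBE sample. The log2 fold change was 1.28 (SE 0.59, adjusted p = 0.0383 by edgeR), and each of the 6 fits without 1 sample missed the threshold, at 1.18 to 1.37 with adjusted p from 0.0592 to 0.0837. Among gene sums, where SNHG1 is this isoform alone, the adjusted p was 0.0265 by edgeR, and the call was lost without A549 replicate 1, A549 replicate 3 or HBE replicate 2 (adjusted p = 0.0639, 0.0689 and 0.0536).

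SNHG25 (chromosome 17, plus strand), host of SNORD104 and SNORA50C, was lower in A549, but the HBE samples differed widely. SNHG25-202 (ENST00000582965, 64145970 to 64146476, 2 exons) had 0, 0.169 and 0.00535 FPKM in A549, against 0, 6.17 and 10.1 FPKM in HBE. HBE replicate 1 was at 0, so the lines overlapped, and the counts were 0, 3 and 1 in A549 and 0, 89 and 139 in HBE. Scaled by library size, the summed count was 61.2-fold higher in HBE than in A549, from 4 rounded-up counts in A549 and 228 in HBE, with an exact 95% interval of 23.6 to 227 for counting error. That interval pools the samples of each line and leaves out the spread between them. Before rounding up, the sums were 2.70 counts in A549 and 227 in HBE, so the ratio also depends on rounding.

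The edgeR log2 fold change of SNHG25-202 was -5.86 (SE 1.26, adjusted p = 0.000110). It was -7.09 without A549 replicate 2, -6.45 without HBE replicate 1 and -5.05 without HBE replicate 3, each past the threshold by edgeR. Of this isoform 13.3% is in no other transcript on that strand. The junction of its only intron, which holds SNORD104, is in no other transcript, with the downstream exon in capitals.
SNHG25-202 junction 1: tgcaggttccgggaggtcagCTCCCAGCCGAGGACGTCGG

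**Figure D4:**
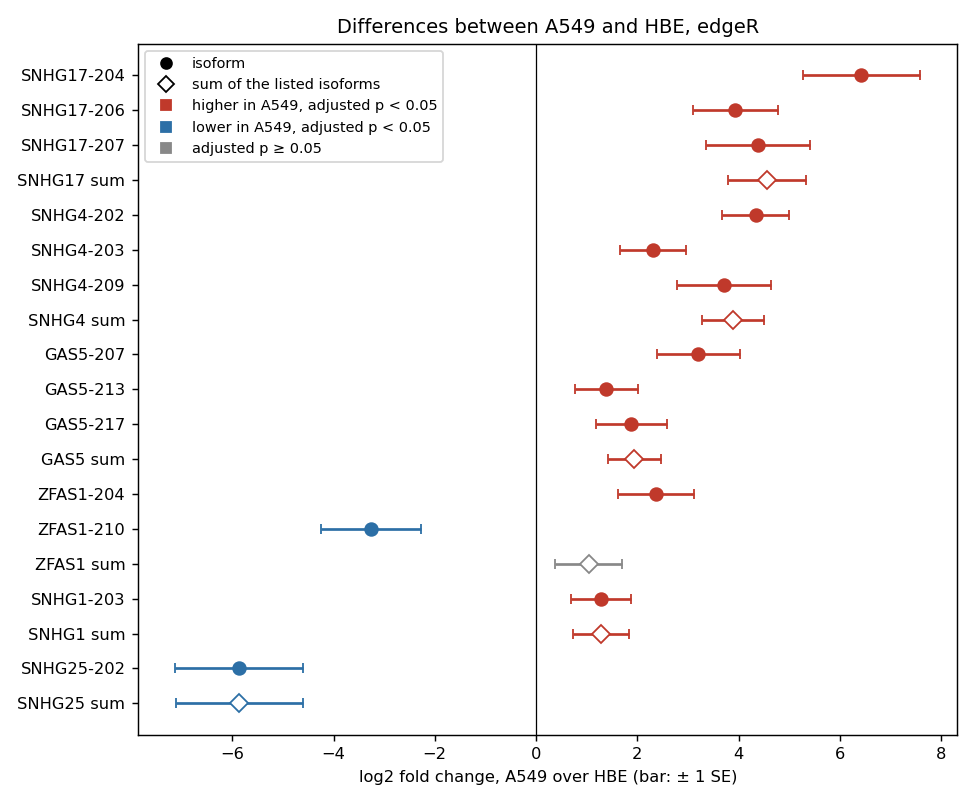
Log2 fold change of A549 over HBE (horizontal axis) with ± 1 SE for the 13 isoforms (circles) and the sums of the listed isoforms per gene (open diamonds), from edgeR. The SNHG17 sum lies at 4.57 and the SNHG4 sum at 3.89, and the ZFAS1 sum is grey because its adjusted p was 0.127.

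The 8 isoforms without a whole snoRNA in an exon were all higher in A549, and of the 5 with one, 3 were higher and 2 lower. Elsewhere in the table, annotated transcripts without a whole snoRNA in an exon comprised 283 higher and 383 lower in A549, and those with one comprised 7 higher and 2 lower. The deposited values are per transcript, so reads from the snoRNA and from the rest of an isoform cannot be separated, and the part of the snoRNA in these values was not tested. In all, 5 of the 13 isoforms have the GENCODE type retained intron, namely all 3 of GAS5, SNHG1-203 and SNHG17-207. These were higher in A549, as were 11 of all 13 isoforms, and the directions of this type over the table were not counted.

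In A549 the order by mean FPKM ran from SNHG4-202 at 12.2 ± 4.72 FPKM down to ZFAS1-210 at 0.0432 ± 0.0395 FPKM (SD, n = 3 each). SNHG4-202 did not overlap with SNHG4-203, next at 4.63 ± 0.790 FPKM, and SNHG4-209 did not overlap with SNHG17-207 below it. The other 10 neighbouring pairs overlapped. In HBE the highest mean was that of SNHG25-202 at 5.41 ± 5.08 FPKM and the lowest that of SNHG17-204 at 0.00464 ± 0.00453 FPKM (SD, n = 3 each). SNHG1-203, second at 1.74 ± 0.121 FPKM, did not overlap with GAS5-213 at 0.986 ± 0.206 FPKM, nor did SNHG17-206 with SNHG17-207, and the other 10 pairs overlapped. Means were below 1 FPKM in A549 for 3 isoforms and in HBE for 11.

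For SNHG17, SNHG4, GAS5 and ZFAS1, the listed isoform highest in mean FPKM was compared with the table's annotated transcripts of other genes. The nearest transcripts were found by the mean absolute difference of log2(FPKM + 0.1) over the 6 samples. For GAS5-217 they were DHRS4-AS1-205 at 0.27 and AC073111.4-201 at 0.28, and for ZFAS1-204 they were AC004148.2-201 at 0.30 and AC068473.5-201 at 0.38. SNHG4-202 was nearest to AC090517.5-204 at 0.83 and to LRRC75A-AS1-214, of another snoRNA host, at 0.85. SNHG17-204 was nearest to ZBED5-AS1-201 at 0.94 and TMEM132D-AS1-207 at 0.96.

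Of 17 further hosts and small structured RNAs looked for, 4 were in the table. LRRC75A-AS1 had 4 transcripts higher and 1 lower in A549, all 4 of SNHG14 were higher and all 5 of SNHG15 were lower, and the 1 transcript of RPPH1, the RNA of ribonuclease P, did not pass. No ribosomal protein gene was in the table, which lists lncRNA transcripts only. Coding genes, such as NOP56, EEF1B2, RACK1 and HSPA8 among the 17, could not appear in it. Their absence therefore says nothing about their levels.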

How the data were processed

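RNA-seq of 3 A549 and 3 HBE samples was deposited as 1 table of lncRNA transcripts. Per the submitters' processing notes, HISAT2, StringTie and DESeq2 and the build GRCh38 were used, with no versions. Per the file headers the authors deposited an estimated count and an FPKM value per transcript and sample, with the authors' p-value and log2 fold change per transcript. No source used here says if that p-value was adjusted.

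Library sizes were solved from count, FPKM and GENCODE 29 length (100% of nonzero annotated values within 1 count in each sample) and were the only scaling. All rows were tested with edgeR 4.0.16 (R 4.3.3, quasi-likelihood, Benjamini-Hochberg adjustment at 0.05, no filter), and the member rows were read from that fit. The procedure was also tried on simulated counts whose rows, unlike those of this table, were not selected for a difference. That trial does not check the p-values given here. SE is the fold change divided by the root of F. Counts were also summed per gene over listed transcripts. Identifiers and names of all 13 members matched GENCODE. Copies were sought with blastn 2.17.0 at 97% identity over at least 50 bases, and 9.11% of SNHG4-203 had one elsewhere. Promoters of 5 of the 6 genes and snoRNA positions are from RefSeq, GRCh38.p14.

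Every member is named. Members and lists were chosen with earlier results of these data known. Alternatives were DESeq2 1.42.0, TMM, limma 3.58.1 on log2(FPKM + 0.1) and log2(FPKM + 1), a count filter, a replicate block and leaving out each sample. Unrounded counts were added after the data were seen.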

Additional observations from a re-analysis of the deposited data

How the results depend on the processing

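No isoform or gene sum changed direction in the alternatives that gave it a value, and of 255 such values 231 kept their side of the threshold, 19 lost a call and 5 gained one. The scalings taken from the table raised the log2 fold changes of the 13 isoforms by a median of 1.42 (DESeq2 size factors in edgeR), 0.53 (TMM) and 1.46 (DESeq2 Wald test), against 0.86, 0.28 and 1.40 for the median of all transcripts. The higher calls among isoforms were 9 to 11 throughout. The 2 lower calls became 1 with DESeq2 size factors in edgeR, with the DESeq2 Wald test and with the replicate block. A minimum of 10 counts in 3 or more samples left 9 of the 13 isoforms to test and so 0 lower isoforms, 0 lower gene sums and 941 calls over the table. SNHG17-207 lost its call with limma on log2(FPKM + 1) (0.62, adjusted p = 0.0502). By summed estimated counts the ZFAS1-204 and ZFAS1-210 shares differed by 56.0 and -56.0 percentage points, SNHG17-204 by 17.3, SNHG17-206 by -9.47 and SNHG4-209 by 2.91.

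Without 1 sample, table calls were 1408 to 1431, higher isoforms 9 to 10, and higher gene sums 3 to 4. The share differences then ranged over 7.36 to 19.9 (GAS5-207), -19.0 to -13.2 (GAS5-213), -6.65 to 6.48 (GAS5-217), 21.2 to 51.4 (SNHG17-204), -44.3 to -10.7 (SNHG17-206), -16.2 to -0.374 (SNHG17-207), 12.0 to 33.7 (SNHG4-202), -37.0 to -15.4 (SNHG4-203), 3.24 to 10.8 (SNHG4-209), 47.7 to 53.4 (ZFAS1-204) and -53.4 to -47.7 percentage points (ZFAS1-210).

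The labels give both lines replicate numbers 1 to 3, but the deviations of same-numbered samples correlated at -0.0495 to 0.0109. No pairing by number was detected, though with 3 samples per line and selected transcripts a pairing could be missed. With the replicate block the table had 1342 calls, and GAS5-213, SNHG1-203 and ZFAS1-210 missed the threshold (1.37, 1.28 and -3.10, adjusted p = 0.0655, 0.0669 and 0.0972 by edgeR), as did the SNHG1 gene sum (1.28, adjusted p = 0.0628). Deposited counts were rounded up, so a count of 1, as for SNHG17-204 in HBE, can stand for a fraction of a read.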
